A study of Mus musculus with 18 samples.

Results

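Interferon response genes were examined in RNA collected from Neuro2A (N2A) cells, a mouse neuroblastoma line, with and without transfection of a small RNA mimic. The genes were the transcription factors Stat2, Irf1, Irf3 and Irf9, the ubiquitin-like modifier Isg15, the double-stranded RNA-activated kinase Eif2ak2 (PKR) and the immunoproteasome subunits Psmb8, Psmb9 and Psmb10. They were found by symbol, and each of the 9 had at least 1 locus. Isg15 was listed at 2 loci, which gave 10 loci among 52179 loci with a symbol. Of these 10 loci, 7 reached a mean of 10 normalized counts over the 18 samples and were among the 15579 loci tested, while both Isg15 loci and the Psmb9 locus did not.

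The series held 6 groups of 3 samples of wild-type N2A cells. Cells were transfected with a biotinylated mimic of miR-92b or with a biotinylated scrambled mimic (Scr), each at 25 nM, or were left untransfected (control). RNA was collected by biotin pulldown from nuclear or from whole cell lysates, 48 h after transfection for the mimic groups. No collection time was available for control. Control cells held no biotinylated mimic, so in comparisons with control the transfection and capture by a mimic cannot be told apart. N2A is a single established tumour line, so all samples share 1 genetic background. Because the libraries hold RNA that came through a pulldown, RNA level in the cells and recovery on the beads cannot be told apart, and fewer cells expressing a gene and less RNA per cell cannot be told apart either. The study describes separate experiments for RT-qPCR of such pulldowns, but no label ties the sequenced samples of a group to separate cultures, so p-values measure only the spread between these samples, which may be technical.

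Cells recognise foreign or double-stranded RNA with sensors such as RIG-I and PKR. Sensor signalling activates Irf3, which enters the nucleus and switches on type I interferon genes. Secreted interferon binds its receptor on the same or neighbouring cells, and the receptor's kinases activate Stat2, which acts with Irf9 in a complex that binds interferon-stimulated response elements (ISREs). Interferon gamma acts at gamma-activated sequences (GAS), and Irf1 is among the genes switched on there. Downstream genes include Isg15, Eif2ak2 and the immunoproteasome subunits, which replace constitutive catalytic subunits and change the peptides offered for antigen presentation. Short duplexes delivered with a lipid or polymer reagent can reach these sensors, so genes of this response are commonly inspected in transfected cells.

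A reference sequence of the mimicked microRNA and stretches near the genes that match the letters of response elements are given here as background. The labels name miR-92b without an arm. The RefSeq mature sequence of the 3p arm (22 bases, GRCm38.p6, chr3:89227126-89227147, minus strand) is shown with its seed, bases 2 to 8, in capitals.
mmu-miR-92b-3p: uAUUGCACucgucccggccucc
The same seed is carried by 6 mature mouse microRNAs in RefSeq, miR-92b-3p among them. Its 7-base DNA complement, GTGCAAT, was found in the 3′ UTR of a protein-coding GENCODE transcript for 1457 of 21677 genes (6.72%) and for 0 of the 9 interferon response genes.

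RefSeq promoter windows, from 250 bases before to 50 bases after a transcript start, were available for all 9 genes in 11 windows. An ISRE was searched as GAAANNGAAA on both strands and a GAS element as TTCNNNGAA, which reads the same on both strands. ISRE letters were found in windows of 3 of the 9 genes (Stat2, Isg15 and Eif2ak2), against 3.99% of the 27025 genes with a window. GAS letters were found for 3 of the 9 (Irf1, Eif2ak2 and Psmb8), against 9.55% of genes. One stretch per gene is shown, on the strand of the gene and with the matching letters in capitals. Distances are from the RefSeq transcript start of the window. The GENCODE gene of Psmb8 starts at 34197721, before its window of 34197945 to 34198244. The GAS match of Eif2ak2, from 178 to 170 bases before the start, is not shown.
Isg15, chr4:156200835-156200936, minus strand, 3 overlapping ISRE matches ending 57 bases before the start: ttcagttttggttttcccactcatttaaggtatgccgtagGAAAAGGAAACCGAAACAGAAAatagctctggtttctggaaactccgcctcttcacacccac
Stat2, chr10:128270248-128270325, plus strand, ISRE on the opposite strand, from 222 to 213 bases before the start: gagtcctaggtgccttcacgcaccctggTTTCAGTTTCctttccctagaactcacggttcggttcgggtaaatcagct
Eif2ak2, chr17:78882535-78882564, minus strand, ISRE 18 bases past the start: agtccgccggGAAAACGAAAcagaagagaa
Irf1, chr11:53769884-53769972, plus strand, GAS from 90 to 82 bases before the start: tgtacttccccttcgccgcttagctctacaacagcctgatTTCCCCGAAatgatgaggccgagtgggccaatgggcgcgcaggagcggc
Psmb8, chr17:34198058-34198146, plus strand, GAS from 97 to 89 bases before the start: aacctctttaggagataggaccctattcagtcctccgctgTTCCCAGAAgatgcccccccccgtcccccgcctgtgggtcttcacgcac
A match describes letters in a window and not binding, and windows with no match were not searched further.

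Reads assigned to named loci numbered 3752991 to 22920038 in a sample, and 0.334% to 16.7% of the tested loci were at 0 in a sample. In 6 samples the share at 0 was 10% or more (nuclear control 3, nuclear Scr 2 and 3, whole cell Scr 1, and whole cell miR-92b 2 and 3). Of 12 neuroblastoma and sympathetic neuron markers, 11 were tested, and they summed to 3740 to 4993 normalized counts in nuclear samples and to 3949 to 6173 in whole cell ones. Of 8 macrophage and microglia markers none was tested, Adgre1, Tyrobp and C1qa had 0 reads in all samples, and their summed level was at most 50.6. None of 6 fibroblast markers was tested (sum at most 37.8 in nuclear and 90.5 in whole cell samples), and of 4 endothelial and 4 astrocyte markers 1 each was tested (sums at most 77.4 and 75.7). The 4 nuclear RNA markers summed to 107311 to 139468 normalized counts in nuclear samples, against 30440 to 79090 in whole cell ones.

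No tested interferon response gene passed the test in nuclear or whole cell RNA when either mimic was compared with untransfected cells. With limma across all tested loci, 0 of 7 genes passed an adjusted p of 0.05 for nuclear Scr, nuclear miR-92b, whole cell Scr or whole cell miR-92b against control, and edgeR and DESeq2 called 0 in each as well. By limma the calls over all loci were 0%, 0%, 0% and 0.00642%. Over all loci edgeR called 0, 0, 0 and 1 in the same order, and DESeq2 called 0, 0, 37 and 21. At an unadjusted p under 0.05, limma gave 0, 0 and 0 genes in the first 3 comparisons and 2 genes, Psmb8 and Eif2ak2, for whole cell miR-92b, where all loci gave 5.88%, 0.321%, 5.09% and 4.69% at that threshold. The median log2 fold change of the 7 genes was -0.17 for nuclear Scr, -0.10 for nuclear miR-92b, -0.14 for whole cell Scr and 0.09 for whole cell miR-92b, beside -0.07, 0.03, -0.09 and -0.10 over all tested loci. The 2 comparisons in each compartment share the control samples. The 95% intervals of single genes, which are not adjusted for the number of loci, reached from -6.51 to 4.74 on the log2 scale. With 3 samples per group, a gene that was not called may still differ by any value within its interval. Of 4 cytoplasmic RNA markers, 0 passed for nuclear Scr against control and 3 were higher at an unadjusted limma p under 0.05 (median log2 fold change 0.79), and their sums were 5375 to 12349 normalized counts with nuclear Scr and 3730 to 5912 in nuclear control. The part of this in the nuclear Scr values was not tested.

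**Figure D1:**
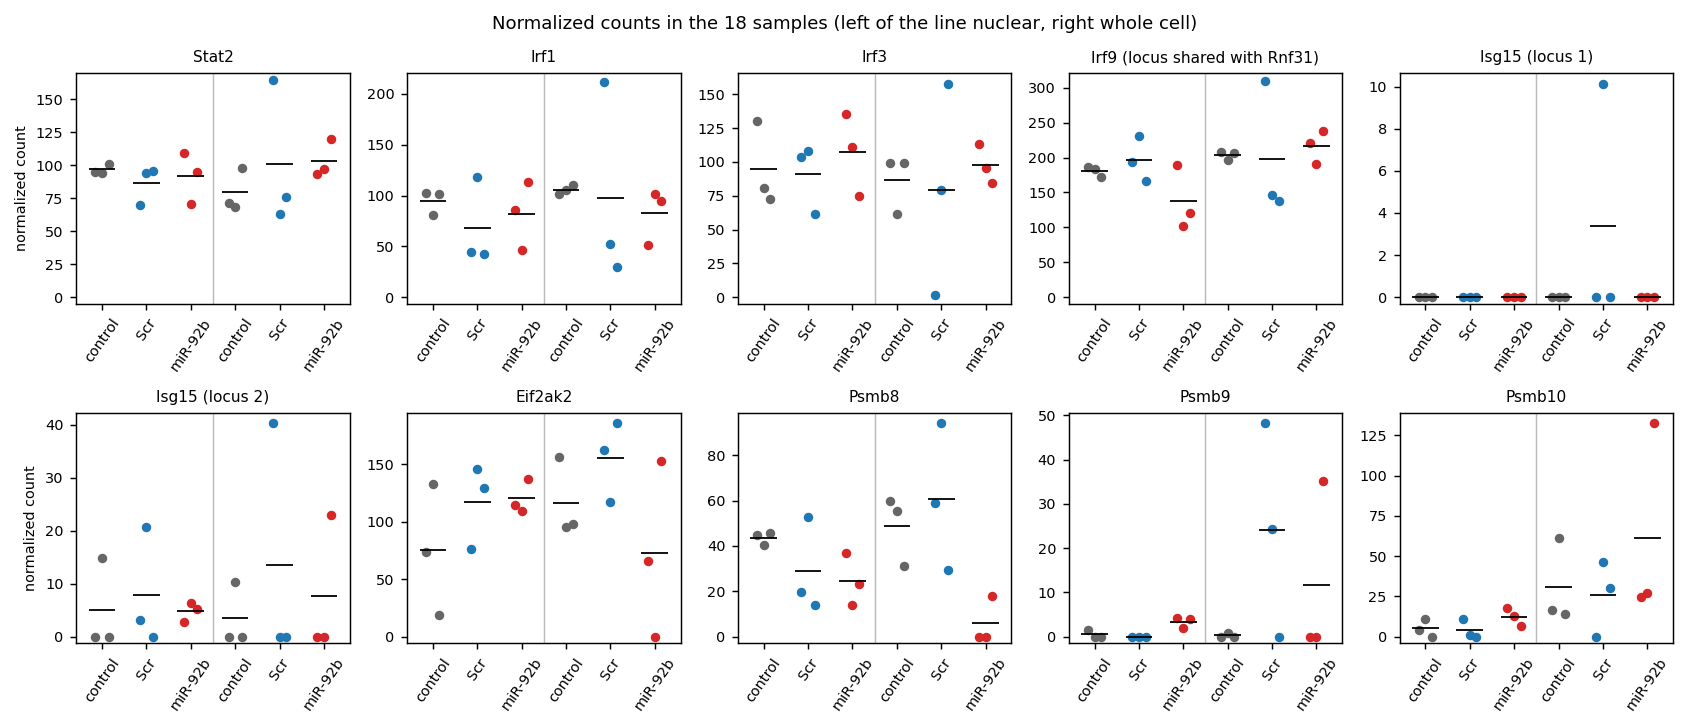
Normalized counts (y axis, linear, a separate scale per panel) of the 10 loci in the 18 samples, as points by group (x axis), with a bar at the mean of each group of 3. Whole cell miR-92b samples of Psmb8 lie at 0, 0 and 17.8, under the 3 control samples, while the groups of most other panels overlap.

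With the mimics pooled, 0 of 7 genes passed in nuclear samples (0% of all loci) and 0 of 7 in whole cell samples (0% of all loci), with median log2 fold changes of -0.14 and -0.51 beside -0.02 and -0.12 over all loci. limma, edgeR and DESeq2 all gave 0 genes, and limma gave 0 at an unadjusted p under 0.05 in both. Over all loci DESeq2 called 0 in nuclear and 4 in whole cell samples. The difference of the transfection effects between the compartments was 0 of 7 as well, with 0% of all loci called and log2 differences, nuclear minus whole cell, from -0.45 to 1.99.

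**Figure D2:**
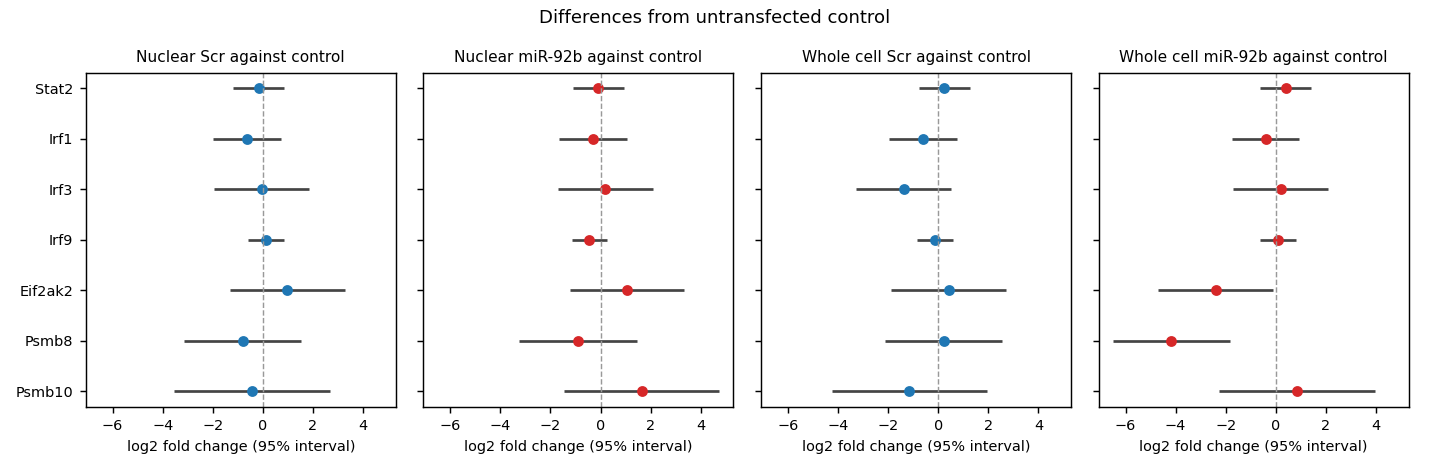
Log2 fold change (x axis, points) of the 7 tested genes against untransfected control, with the 95% interval of the limma model as lines, in 1 panel per comparison. All intervals include 0 except those of Psmb8 and Eif2ak2 for whole cell miR-92b.

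Irf3 is the factor that RNA sensors activate by phosphorylation rather than by a higher mRNA level, so its read counts do not measure its activation. Irf3 (chr7, locus 44986900 to 45016604) was at 130, 80.7 and 72.8 normalized counts in nuclear control, at 104, 108 and 61.8 with nuclear Scr, and at 135, 111 and 74.6 with nuclear miR-92b. Its whole cell values were 98.8, 61.4 and 99.0 in control, at 1.75, 79.0 and 158 with Scr, and at 113, 95.7 and 84.1 with miR-92b. The 3 nuclear groups overlapped, and so did the whole cell groups, where 1 Scr sample held only 2 reads. That sample, whole cell Scr 1, was among those with many loci at 0 (12.9% of tested loci). The log2 fold change for whole cell Scr was -1.39 (SE 0.92, limma adjusted p = 0.96), and without that sample it was 0.40. For the other comparisons with control it was -0.05, 0.18 and 0.20, for nuclear Scr, nuclear miR-92b and whole cell miR-92b.

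Stat2 carries the transactivation domain of the interferon-stimulated complex. Stat2 (chr10, locus 128270576 to 128292849) was at 95.3, 94.1 and 101 normalized counts in nuclear control, at 70.1, 94.4 and 95.8 with nuclear Scr, and at 109, 70.7 and 95.2 with nuclear miR-92b. Whole cell samples held 71.7, 68.3 and 98.2 in control, at 165, 62.8 and 75.9 with Scr, and at 93.6, 97.1 and 120 with miR-92b. In each comparison the groups overlapped. The log2 fold changes against control were -0.17 ± 0.49 (SE, n = 3 per group), -0.10, 0.23 and 0.39 for nuclear Scr, nuclear miR-92b, whole cell Scr and whole cell miR-92b, and the lowest adjusted limma p was 0.990. With the spread of these samples, the whole cell miR-92b interval ran from -0.63 to 1.41, so larger rises lay outside it.

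Irf9 supplies the DNA-binding part of the complex. Its locus (chr14, 55591708 to 55610030) also holds Rnf31, which encodes a catalytic subunit of the linear ubiquitin chain assembly complex, so a value cannot be assigned to Irf9 alone. The locus was at 186, 184 and 172 normalized counts in nuclear control, at 193, 231 and 166 with nuclear Scr, and at 190, 102 and 121 with nuclear miR-92b. In whole cell RNA the locus was at 208, 196 and 207 in control, at 310, 147 and 138 with Scr, and at 221, 191 and 238 with miR-92b. It had the narrowest spread of the 7 tested loci over the 18 samples, with a coefficient of variation of 0.251 beside 0.254 for Stat2. Log2 fold changes against control were 0.11, -0.44, -0.14 and 0.09 (SE 0.35 each) in the same order, and the largest, for nuclear miR-92b, had an unadjusted limma p of 0.213.

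Irf1 is induced early by interferon gamma and drives further genes, among them immunoproteasome subunits. Irf1 (chr11, locus 53770014 to 53778374) ranged from 42.9 to 119 normalized counts in nuclear and from 29.6 to 211 in whole cell samples. Control samples were close together, at 94.8 ± 12.3 (SD, n = 3) in nuclear and 106 ± 4.79 (SD, n = 3) in whole cell RNA, while whole cell Scr samples lay at 211, 52.7 and 29.6. The log2 fold changes were -0.62, -0.29, -0.60 and -0.41 (SE 0.66 each), and the groups overlapped in every comparison with control. All 4 point estimates were below 0, but the comparisons within a compartment share the control samples and none passed the test.

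Eif2ak2 encodes PKR, which binds double-stranded RNA and phosphorylates the initiation factor eIF2alpha. Eif2ak2 (chr17, locus 78852050 to 78906992) was at 73.7, 133 and 19.0 normalized counts in nuclear control, at 76.2, 146 and 130 with nuclear Scr, and at 115, 110 and 138 with nuclear miR-92b. In whole cell RNA it stood at 156, 95.1 and 98.2 in control, at 162, 117 and 186 with Scr, and at 65.7, 0 and 153 with miR-92b. In nuclear RNA 1 control sample was low, with 12 reads, and in whole cell RNA 1 miR-92b sample had 0 reads. The log2 fold changes were 0.96, 1.05, 0.42 and -2.40 (SE 1.11 each). Without nuclear control 3, the low control sample, the first 2 were 0.19 and 0.28. The last had an unadjusted limma p of 0.0411 and an adjusted p of 1. It was -0.70 by edgeR and -0.67 by DESeq2, and -0.18 by limma without whole cell miR-92b 2, the sample with 0 reads. In that sample 10.0% of all tested loci were at 0.

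Isg15 is among the most strongly interferon-induced genes, and its protein is conjugated to other proteins. Its 2 loci have the same coordinates (chr4, 156199424 to 156200818) and separate values. The first had reads in 1 of 18 samples, 10 reads in whole cell Scr 2. The second had 150 reads in total and 0 reads in 9 samples. It was at 0, 14.8 and 0 normalized counts in nuclear control, at 3.05, 20.7 and 0 with nuclear Scr, and at 2.73, 6.40 and 5.14 with nuclear miR-92b. In whole cell samples it was at 0, 10.4 and 0 in control, at 40.3, 0 and 0 with Scr, and at 0, 0 and 22.9 with miR-92b. At this second locus control samples had reads as well as transfected ones, and in each whole cell group 1 sample had reads and the others had none. Those with a mimic, whole cell Scr 1 and miR-92b 3, were among the samples with many loci at 0 (12.9% and 16.7% of tested loci). Whole cell Scr 2, with 0 reads here, was the sample with reads at the first locus. A count of 0 allows up to 3 reads, which is 0.786 to 4.75 normalized counts depending on the depth of the sample. Neither locus passed the filter on low values, and in a model without that filter (28348 loci) the lowest adjusted limma p of an Isg15 locus against control was 0.863.

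Psmb8, Psmb9 and Psmb10 encode the catalytic subunits that take the place of Psmb5, Psmb6 and Psmb7 in the immunoproteasome. Psmb8 had the lowest values in whole cell miR-92b samples. Psmb8 (chr17, locus 34197635 to 34216321) was at 60.0, 55.3 and 31.2 normalized counts in whole cell control, at 58.7, 94.2 and 29.3 with Scr, and at 0, 0 and 17.8 with miR-92b. The 3 miR-92b samples lay below all control and all Scr samples, with 0, 0 and 28 reads. Whole cell miR-92b 2 and 3 were among the samples with many loci at 0 (10.0% and 16.7% of tested loci). Whole cell miR-92b 1, also at 0 for Psmb8, was not, at 5.14%. The log2 fold change against control was -4.17 (SE 1.13, 95% interval -6.51 to -1.84), with an unadjusted limma p of 0.00118 and an adjusted p of 1. Over the alternatives that keep all samples it ranged from -4.84 to -2.22, with -3.01 by edgeR and -2.94 by DESeq2, and the adjusted p ranged from 0.0209 to 1 over all alternatives. The 0.0209 came from a model without the 6 samples with 10% or more of loci at 0. There, whole cell miR-92b was represented by 1 sample with 0 reads, which was assumed to vary like the other groups. Of the 7 tested genes 1 did not overlap between whole cell miR-92b and control, where 8.01% of all loci did not.

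In nuclear RNA Psmb8 was at 44.8, 40.3 and 45.9 normalized counts in control, at 19.8, 52.9 and 13.9 with Scr, and at 36.9, 13.8 and 23.1 with miR-92b. Nuclear miR-92b samples lay below the 3 control samples, while nuclear Scr samples lay on both sides. The log2 fold changes were -0.80 and -0.90 (SE 1.13 each), with adjusted limma p values of 0.99 and 1. In this comparison with miR-92b 1 of 7 genes did not overlap, beside 7.48% of all loci. For nuclear Scr and whole cell Scr against control the groups overlapped for all 7 genes, beside 8.66% and 13.5% of all loci without overlap. The whole cell Scr value of Psmb8 was 0.21 on the log2 scale.

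Among tested loci with a mean of 50 to 200 normalized counts, a range that holds Eif2ak2 (mean 110) and not Psmb8 (mean 35.4), 992 of 4724 (21.0%) had at least 1 sample at 0. No such share was computed at the level of Psmb8, and the part of such losses in the values of either gene was not tested.

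Psmb10 (chr8, locus 105934333 to 105966097) was at 4.33, 10.8 and 0 normalized counts in nuclear control, at 10.7, 1.15 and 0 with nuclear Scr, and at 17.8, 12.5 and 6.43 with nuclear miR-92b. In whole cell samples it was at 16.5, 61.4 and 14.0 in control, at 0, 46.6 and 30.1 with Scr, and at 24.3, 27.1 and 133 with miR-92b. The highest value belonged to whole cell miR-92b 3 and the groups overlapped in every comparison with control. The log2 fold changes were -0.44, 1.63, -1.16 and 0.85 (SE 1.50 each), and 0 of 4 passed. The nuclear miR-92b value was 0.64 without nuclear control 3, which had 0 reads, and the whole cell miR-92b value was 0.071 without whole cell miR-92b 3.

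Psmb9 (chr17, locus 34181988 to 34197225) had 148 reads in total and 0 reads in 10 samples. Reads were seen in 1 nuclear control sample (1 read), in no nuclear Scr sample and in all 3 nuclear miR-92b samples (3, 6 and 3 reads). In whole cell RNA it was at 0, 0.865 and 0 normalized counts in control, at 48.2, 24.3 and 0 with Scr, and at 0, 0 and 35.1 with miR-92b. Whole cell Scr 1, Scr 2 and miR-92b 3 stood apart with 55, 24 and 55 reads, while the other samples of these groups were at 0. Whole cell Scr 1 and miR-92b 3 were among the samples with many loci at 0 (12.9% and 16.7% of tested loci). Whole cell Scr 2 was not, at 5.89%. In the model without a filter, the log2 fold change of Psmb9 for whole cell Scr was 3.13 (SE 1.39), with an unadjusted limma p of 0.0364 and an adjusted p of 0.863 by a model fitted across all loci. In the main model, 5.09% of all tested loci had an unadjusted limma p under 0.05 for whole cell Scr against control. The share in the model without a filter was not computed.

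On a scale relative to transcript length (FPKM), Psmb9 and Psmb10 lay below their constitutive counterparts, and Psmb8 did not in every sample. Psmb7 had a median of 15.7 FPKM over the 18 samples and Psmb10 2.39, and Psmb10 was below Psmb7 in all 18. Psmb6 had a median of 28.2 FPKM and Psmb9 a median of 0, and Psmb9 was below Psmb6 in all 18. Psmb8 had a median of 3.30 FPKM and Psmb5, at a locus shared with Mir686, a median of 4.80, and Psmb8 was above Psmb5 in 7 of 18 samples, 6 of 9 nuclear and 1 of 9 whole cell.

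**Figure D3:**
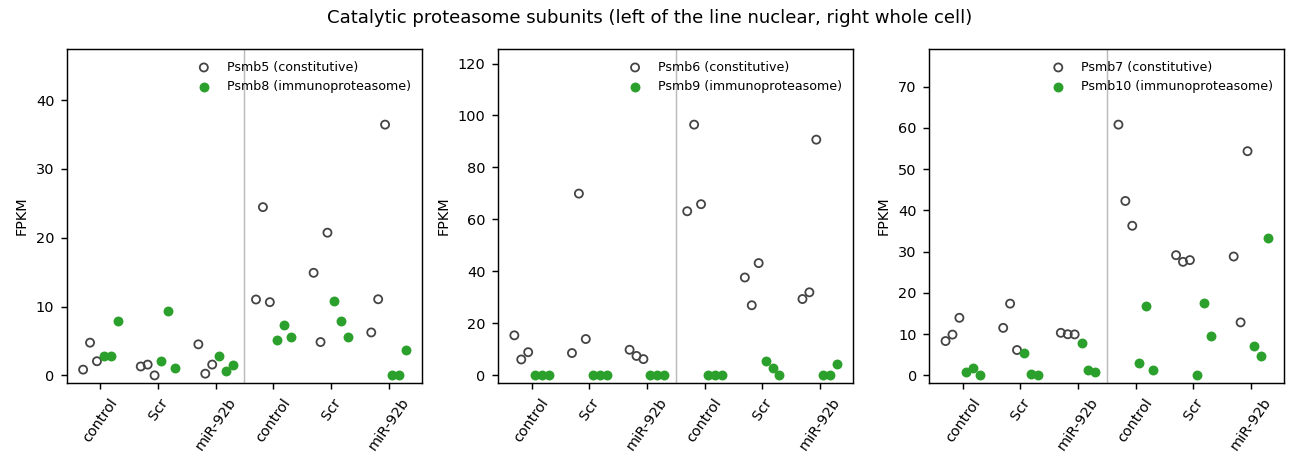
FPKM (y axis, linear, a separate scale per panel) of each immunoproteasome subunit (filled points) and its constitutive counterpart (open points) in the 18 samples by group (x axis). Psmb9 and Psmb10 lie below Psmb6 and Psmb7 in all 18 samples, while Psmb8 and Psmb5 overlap.

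Because untransfected cells lack any mimic, miR-92b was also compared with Scr, where both arms were transfected. In nuclear samples 0 of 7 genes passed, and 0% of all loci were called, with log2 fold changes from -0.55 to 2.07. The groups overlapped for all 7 genes, beside 10.1% of all loci without overlap. For whole cell RNA 0 of 7 passed (0.00642% of all loci). Psmb8 had the lowest log2 fold change, -4.39 (SE 1.13), with an adjusted limma p of 0.259. Eif2ak2 came next at -2.82 (SE 1.11), with an adjusted limma p of 0.439. By edgeR and DESeq2, Eif2ak2 was at -1.11 and -1.09, and Psmb8 at -3.31 and -3.26, and neither tool called them. Over all loci edgeR called 1 and DESeq2 176. Both genes had an unadjusted limma p under 0.05, as did 9.72% of all loci. Psmb8 alone did not overlap, where 8.92% of all loci did not. Without whole cell miR-92b 2, Eif2ak2 was at -0.60, and in the model without the 6 samples with many loci at 0, Psmb8 was at -5.75 with an adjusted p of 0.0213, from 1 miR-92b sample. The 1 locus called in this comparison and against whole cell control was that of Gm38372 and Pcmtd1, named after its values were seen, at 2188, 4905 and 1610 normalized counts with whole cell miR-92b and at most 777 in each other sample. Its log2 fold changes were 2.30 against control and 2.29 against Scr (SE 0.28 each, adjusted limma p of 0.000371 and 0.000401).

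Nuclear and whole cell RNA were compared over all 3 treatments, which gave 9 samples each. By limma 0 of 7 genes passed, while 31.0% of all loci were called. At an unadjusted p under 0.05 there was 1 of 7, Psmb10, beside 42.0% of all loci. It was at 0, 6.43 and 17.8 normalized counts (lowest, median and highest) in nuclear and at 0, 27.1 and 133 in whole cell samples. The ranges overlapped, and the log2 difference, nuclear minus whole cell, was -2.18 (SE 0.87), with an adjusted limma p of 0.0592. The adjusted p fell to 0.0183 with a pseudocount of 8, to 0.00849 with DESeq2, to 0.0351 without nuclear Scr 1 and to 0.00987 without whole cell Scr 1, where Psmb10 was at 0. edgeR gave 0.0615. The other 6 genes lay between -0.26 and 0.64. The 3 constitutive subunits were all lower in nuclear RNA. The log2 difference was -1.06 (SE 0.23) for Psmb7, -1.43 (SE 0.28) for Psmb6 and -3.11 (SE 0.68) for Psmb5, with adjusted limma p values of 0.00122, 0.000472 and 0.00122.

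In FPKM the genes took the order Irf3 (median 8.12 over the 18 samples), Irf9 (6.13), Eif2ak2 (5.61), Irf1 (5.35), Psmb8 (3.30), Psmb10 (2.39) and Stat2 (2.17), followed by the second Isg15 locus (0.273), the first Isg15 locus and Psmb9 (both 0). The ranges of neighbours in this order overlapped throughout, so the order of neighbours lies within their spread. Stat2 had the narrowest FPKM range, 1.56 to 4.05. The locus of Irf9 and Rnf31 ranged from 3.25 to 43.8 FPKM, and its 4 highest values, 42.9, 37.9, 27.2 and 43.8, belonged to nuclear Scr 2, whole cell Scr 1, and whole cell miR-92b 1 and 3. In these samples its normalized counts were 231, 310, 221 and 238, so the 2 scales differed for this locus. The first Isg15 locus stood at 92.6 FPKM in whole cell Scr 2, from 10 reads.

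The assembled loci were not all the size of the annotated gene. For Irf1 and Isg15 they had the ends of the GENCODE gene. The Psmb10 locus covered 31765 bases against 2710 for the gene, the Irf3 locus 29705 against 5201, and the Psmb8 locus 18687 against 3734. The Eif2ak2 locus covered 54943 bases against 30010, the Irf9 locus 18323 against 6460, and the Psmb9 locus 15238 against 5778. Whether fragments were assigned by strand is not given in the sources used here, so reads from neighbouring or antisense transcripts within these spans cannot be told apart from reads of the gene.

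The 7 tested genes did not share 1 pattern. Pearson's r of log2(normalized count + 1) over the 18 samples ranged from -0.60 to 0.62 over the 21 pairs of genes, with a median of -0.09. Among 9487 loci of 1 symbol with a mean of at least 50, the closest to Stat2 were Tfip11 (0.73) and Sdha (0.68), and the closest to Irf1 were Cacnb1 (0.79) and Med27 (0.73). For Irf3 they were Gm15589 (0.96) and Top1mt (0.95), for Irf9 Bet1 (0.74) and Jak1 (0.72), and for Eif2ak2 Igsf6 (0.90) and Bud31 (0.90). Psmb8 was closest to Sec62 (0.75) and St3gal6 (0.75), and Psmb10 to Fabp5 (0.85) and Ppat (0.84). All points share the libraries, their depth and their losses of loci to 0, and of these neighbours Jak1 alone belongs to the interferon lists.

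The rest of the pathway was followed in 11 lists of 203 symbols, of which 197 had a locus, 32 had 0 reads in all samples and 112 were tested. The 110 tested loci that hold none of the 9 genes gave 0 calls against control in either direction for nuclear Scr, nuclear miR-92b, whole cell Scr and whole cell miR-92b by limma. At an unadjusted p under 0.05 there were 5 higher and 6 lower loci for nuclear Scr, 2 and 0 for nuclear miR-92b, 0 and 2 for whole cell Scr, and 3 and 1 for whole cell miR-92b. Their share ran from 1.82% to 10% of the 110, beside 5.88%, 0.321%, 5.09% and 4.69% of all tested loci.

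Interferon ligand genes were the list with the most symbols lacking reads. Of 21 ligand symbols, 16 had 0 reads in all samples, Ifnb1 among them, and 1 (Ifna13) was tested, at 3 loci of a gene family with near-identical copies. The RNA sensor Ifih1 (MDA5) had 0 reads in all samples, and Ddx58 (RIG-I) had a mean of 15.7 normalized counts with 6 samples at 0. Dhx9 and Dhx36, helicases with other roles in RNA metabolism, had means of 2589 and 1214, and Aim2, a DNA sensor, 95.8. Of the signalling genes, the 3 loci with the highest means were that of Tbk1, the kinase that phosphorylates Irf3, joined with Xpot (4148), and those of the kinases Chuk (737) and Ikbkb (707). The other signalling genes ranged from 0 (Rnf135) to 502 (Azi2), with 2.99 for Myd88, 23.3 for the adaptor Mavs and 238 for Traf6. The receptor chains Ifnar1 and Ifngr2 had means of 393 and 150, and the receptor kinase Jak1 337.

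Each list was then read with both mimics together against control, where 0 loci passed and every adjusted limma p was at least 0.998. The median log2 fold change of the sensors was 0.02 in nuclear and 0.05 in whole cell RNA, that of sensor signalling -0.14 and -0.06, and that of receptors and kinases 0.37 and -0.14. The interferon ligands, tested at 3 loci of Ifna13 alone, had medians of 0.11 and -0.16. STAT and IRF factors, with Stat2, Irf1 and Irf9 among them, had medians of -0.03 and -0.15. Of 69 interferon-stimulated effectors, 9 had 0 reads in all samples, Ifi44 among them, and 25 loci were tested, with medians of -0.19 and -0.14. ISG15 conjugation had medians of 0.24 and -0.29, the immunoproteasome and antigen presentation 0.10 and -0.15, and the constitutive subunits -0.01 and -0.54. The negative regulators, among them Pias1, Pias2 and Ptpn11, had medians of 0.04 and -0.18. The list of PKR partners, eIF2alpha kinases and related genes, with Atf4, Ddit3 and Ppp1r15b among the related genes, had medians of 0.04 and -0.02. These medians stand beside -0.02 and -0.12 over all tested loci.

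**Figure D4:**
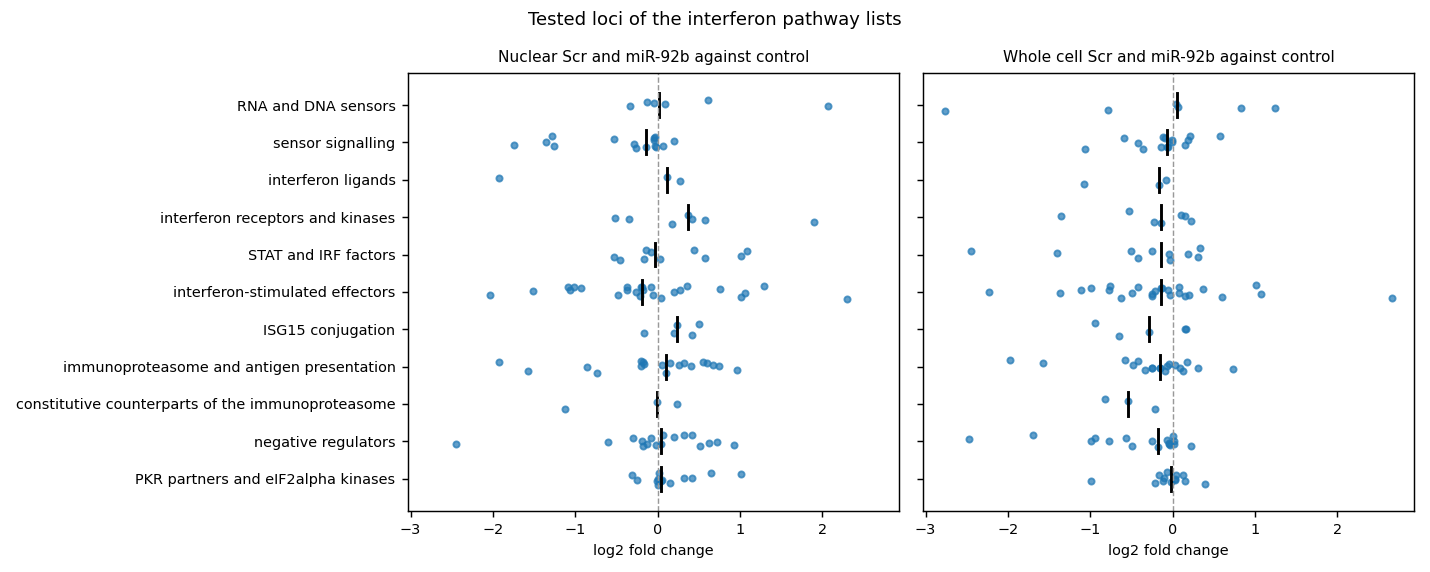
Log2 fold change (x axis) of each tested locus in the 11 pathway lists (y axis, with small vertical jitter), Scr and miR-92b together against control, for nuclear (left) and whole cell samples (right), with a bar at the median of each list. None of the points passed an adjusted p of 0.05, and the list medians lie between -0.54 and 0.37.

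The summed normalized counts of the 74 effector loci were 6695 ± 101 in nuclear control, 6651 ± 415 with nuclear Scr and 6271 ± 241 with nuclear miR-92b (SD, n = 3 each). For whole cell RNA the sums were 5959 ± 91.1 in control, 6117 ± 364 with Scr and 6391 ± 300 with miR-92b (SD, n = 3 each). The sums of ligand loci were 159 ± 82.7, 91.5 ± 94.4 and 116 ± 73.2 in the nuclear groups and 176 ± 25.6, 194 ± 68.2 and 194 ± 165 in the whole cell groups, in the same order (SD, n = 3 each). The ligand sums overlapped among the groups of each compartment, and the effector sums of Scr overlapped those of control in both. Effector sums with miR-92b lay below control in nuclear RNA (6048 to 6527 against 6589 to 6790). In whole cell RNA they lay above control (6193 to 6736 against 5868 to 6050). Of the effector sum, 59.8% came from 2 of the 74 loci, that of Parp10 and Plec and that of Adar, and the sums were not tested.

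Between the compartments, 6 of the 110 pathway loci were higher and 26 were lower in nuclear RNA, a share near the 31.0% of all loci called in either direction (2377 higher and 2454 lower), and their median log2 difference was -0.29 beside 0.14 over all tested loci. The lower loci included the receptor chain Ifngr2 at -2.34 (SE 0.33), the endoplasmic reticulum disulfide isomerase Pdia3 at -2.37 (SE 0.22) and Atf4 at -1.49 (SE 0.16). The phosphatase Ptpn11 was at -1.01 (SE 0.11). Jak1 was at -0.61 (SE 0.18), a call that was lost without the 6 samples with many loci at 0 (-0.34). The higher ones included the locus of Parp10 and Plec at 0.43 (SE 0.10), Ikbkb at 0.52 (SE 0.12) and Irf2 at 0.54 (SE 0.18). From FPKM these 3 were not called, at 0.20, 0.30 and 0.55. Irf2 was also lost without the 6 samples, without nuclear miR-92b 1 and without whole cell control 2. The RNA-editing enzyme Adar, at 0.31 (SE 0.12), lost its call in 17 of 28 alternatives. In the list of the immunoproteasome and antigen presentation 7 of 19 tested loci were lower in nuclear RNA and 0 were higher. Beside them, 2454 of all 15579 tested loci were lower and 2377 were higher. The summed level of 4 cytoplasmic RNA markers was 3730 to 12349 normalized counts in nuclear and 24042 to 83967 in whole cell samples.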

How the data were processed

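Per the labels and the study's methods, poly(A) RNA from the pulldowns was made into directional libraries (NEBNext Ultra) and sequenced on an Illumina HiSeq. The submitters' processing notes name bcl2fastq 2.17, Trimmomatic 0.30, TopHat2 and Cufflinks with the GRCm38 (mm10) build. One table deposited by the authors gives normalized counts, a signal equal to the fragments on an assembled locus over a scaling factor of its library. A second deposited table gives FPKM, which is relative to transcript length and library size. Comparison tables of the authors hold log2 fold changes, p-values and q-values and were not used. The 635205 normalized counts above 0 were whole multiples of 1 read (100% within the precision of the file, 99.95% within 0.02 reads), so reads were recovered.

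Log2(normalized count + 1) was fitted with limma 3.58.1 (R 4.3.3, mean-variance trend) for the 6 groups at once. Two-sided p-values were adjusted by Benjamini-Hochberg over all 15579 loci with a symbol and a mean of at least 10, and a threshold of 0.05. On this scale the added 1 understates changes between low values, while a sample at 0 among higher ones can make a change larger than by the count models. Of the tested loci 1197 join more than 1 symbol. Alternatives were edgeR 4.0.16 and DESeq2 1.42.0 on the recovered reads, pseudocounts of 0.5 and 8, other filters, medians made equal across samples, FPKM (pseudocount of 0.1), a model of the compared groups alone, the sample number as a block, and each sample left out. A model without the 6 samples with 10% or more of tested loci at 0 was chosen after seeing the data. The limma script was tested on simulated data. Intervals and the limit of 3 reads cover counting error or the spread between samples only.

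Named loci were the 9 genes, any pathway locus called against control, the 3 tested loci of each list with the highest means, and the 2 loci most like each gene. Not every locus so chosen is reported here, and a few other genes of the lists are named for their levels. The 9 genes and the lists were chosen with earlier results of these data known. Promoter windows and microRNA sequences came from RefSeq (GRCm38.p6), gene models and 3′ UTRs from GENCODE M21. Replicate pairs differed by more than sampling noise, and 0 columns of values were left unmapped.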

Additional observations from a re-analysis of the deposited data

How the results depend on the processing

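Of 198 recounts of called interferon response genes over the 10 comparisons, 192 gave the count reported. For nuclear against whole cell RNA, the count was 1 (Psmb10) with a pseudocount of 8 and 1 with DESeq2, and 0 to 1 with single samples left out. Without the 6 samples with 10% or more of loci at 0, chosen after seeing the data, it was 1 (Psmb8) for whole cell miR-92b against control and 1 against Scr, from 1 miR-92b sample. The replicate block changed no call of these genes (0 in each comparison). No label says whether same-numbered samples were paired. Deviations of same-numbered samples correlated between -0.04 and 0.11, and 9 of 18 samples correlated best with their own number. Such correlations cannot decide how the samples were collected. Under the block, Psmb8 for whole cell miR-92b against Scr had an adjusted limma p of 0.279.

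Over all 10 comparisons, 108 of 1366 alternative fold changes of the 7 genes changed sign, in 40 of 70 fold changes and none past the threshold, and the cause was not tested. Fold changes in the comparisons given only as ranges are within that count. Of the 528 alternatives to the 31 fold changes given singly, 27 changed sign, as follows. From FPKM, Psmb10 was at 0.064 for nuclear Scr, and for whole cell Scr Irf9 was at 0.42 and Eif2ak2 at -0.15. Without the 6 samples, nuclear Scr gave Irf3 0.016, Eif2ak2 -0.37 and Psmb10 0.56, whole cell Scr gave Stat2 -0.18, Irf3 0.40 and Psmb10 0.60, and whole cell miR-92b gave Psmb10 -0.0056. With single samples left out, nuclear Scr ranged from -0.21 to 0.21 for Irf3, -0.011 to 0.22 for Irf9 and -1.44 to 0.34 for Psmb10. Nuclear miR-92b ranged from -0.24 to 0.074 for Stat2, -0.56 to 0.065 for Irf1 and -0.0055 to 0.43 for Irf3. Whole cell Scr ranged from -0.18 to 0.51 for Stat2, -1.40 to 0.00038 for Irf1, -2.52 to 0.40 for Irf3, -0.51 to 0.068 for Irf9, -0.17 to 0.65 for Psmb8 and -2.19 to 0.60 for Psmb10, and whole cell miR-92b from -0.027 to 0.31 for Irf3.

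The 15 fold changes of called loci outside the 9 genes that were recomputed kept their sign in 397 alternatives, and 8 kept their call in all of them. The locus of Gm38372 and Pcmtd1 lost both calls in models of the compared groups alone. Counts over all loci moved more. For nuclear Scr against control 0 loci became 69 without nuclear Scr 1, for whole cell Scr 0 became 37 with DESeq2, and for whole cell miR-92b 1 became 21 with DESeq2 and 57 without the 6 samples. For whole cell miR-92b against Scr 1 became 176 with DESeq2 and 77 without whole cell miR-92b 1, and for nuclear miR-92b against Scr 0 became 49 without nuclear Scr 1. Isg15 and Psmb9 were too low to test. Why they were at 0 in a sample was not tested, and whole cell Scr 3, the library with the most reads (22920038), had 0 reads of both.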
